A study of Mus musculus with 12 samples.

Results

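A group of 10 genes that encode enzymes placing or removing methyl groups on lysine 4 of histone H3 (H3K4), other than LSD1 itself, was examined in ChIP-seq peak lists from mouse liver. They were 4 demethylase genes (Kdm1b, Kdm5a, Kdm5b and Kdm5c) and 6 methyltransferase genes (Kmt2a, Kmt2b, Kmt2c, Kmt2d, Setd1a and Setd1b), taken by name out of 21853 protein-coding genes of the annotation. For each gene the window was the gene body with 10 kb on either side, and the 10 windows spanned 853.1 kb of the mm10 genome. ChIP-seq sequences the DNA that an antibody brings down from chromatin, and a peak is a region with more reads than a control library. LSD1 was measured in the liver of wild-type C57BL/6 mice. The histone mark H3K4me2 (dimethylated H3K4) was measured in GFP control and in LSD1-LKO liver, also from C57BL/6 mice. By the study's methods, both H3K4me2 groups carried the floxed LSD1 allele (LSD1 fl/fl) and received an AAV8 virus as adults. LSD1-LKO mice received AAV8-TBG-Cre and control mice AAV8-TBG-GFP. The TBG promoter is active in hepatocytes, so the other cells of an LSD1-LKO liver kept LSD1, and chromatin of whole liver does not tell these cells apart. Neither age nor diet is named in the labels of these libraries. The study's methods describe a high-fat diet after the virus injection for LSD1-LKO mice, and male mice in most experiments. Chow-fed LSD1-LKO mice were also studied, so the diet behind these libraries is not settled. Each group had 2 ChIP libraries and 2 control libraries, 12 samples in all.

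Methylation of H3K4 marks active and poised regulatory DNA. Trimethylation is highest at promoters, monomethylation at enhancers, and dimethylation is found at both. SETD1A and SETD1B provide most of the trimethylation at active promoters, KMT2A and KMT2B (MLL1 and MLL2) act at selected promoters, and KMT2C and KMT2D (MLL3 and MLL4) monomethylate enhancers. On the opposing side, LSD1 and its relative KDM1B remove methyl groups from mono- and dimethylated H3K4, while KDM5A, KDM5B and KDM5C remove them from the tri- and dimethylated forms.

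The 3 lists, one per group, held 14584 LSD1 peaks, 43891 control H3K4me2 peaks and 50675 LSD1-LKO H3K4me2 peaks. A list entry is a peak of one library (the first-listed) that overlaps a peak of the other (the second-listed), so a region called in a single library is not listed, and the depth of the libraries is unknown. No control H3K4me2 promoter peak was listed at the hepatocyte gene Alb, but 3 of 4 hepatocyte marker genes had one in control and 4 of 4 in LSD1-LKO. At Kdm1a, which encodes LSD1, H3K4me2 promoter peaks were listed in LSD1-LKO only, and no LSD1 promoter peak was listed. Such peaks say nothing about the deletion, because H3K4me2 at a start site does not measure the floxed exon or the protein.

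LSD1 promoter peaks were listed at 4 of the 10 genes, all of them methyltransferase genes. Promoters here reach 1 kb upstream and downstream of each start of a protein-coding transcript. Kmt2a, Kmt2d, Setd1a and Setd1b had LSD1 promoter peaks (4 of 6 methyltransferase genes), and Kmt2b, Kmt2c, Kdm1b, Kdm5a, Kdm5b and Kdm5c had none. Over all protein-coding genes, 23.6% had an LSD1 promoter peak, or 38.8% of the genes with a control H3K4me2 promoter peak, among which 3 of 9 genes of the group had one. With p-values limited to 1e-05 in both libraries, 2 of the genes (Kmt2a and Kmt2d) kept an LSD1 promoter peak. Outside the group, the demethylase gene Riox1 had one. The difference between the methyltransferase and the demethylase genes was not tested, because the genes were few and were chosen by name.

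Sequences from the LSD1 peaks at the promoters and in the Kdm5b flank are shown because of their CpG content. They are reference sequence (GRCm38), not read from the libraries, and each runs 5′ to 3′ in the direction of its gene, in lower case with CpG dinucleotides in capitals. Exons with untranslated sequence were left out, so that the stretch for Setd1a lies in the intron after its first exon, which is the downstream edge of its peak.
Kmt2a, upstream of the start (chr9:44881650-44881949, minus strand): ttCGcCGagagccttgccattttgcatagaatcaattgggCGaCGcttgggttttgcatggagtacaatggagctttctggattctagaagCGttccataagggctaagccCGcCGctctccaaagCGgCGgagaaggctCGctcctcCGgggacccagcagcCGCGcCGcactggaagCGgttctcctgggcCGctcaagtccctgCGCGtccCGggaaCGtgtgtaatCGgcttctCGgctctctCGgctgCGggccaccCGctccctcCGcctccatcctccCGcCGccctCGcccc
Kmt2d, upstream of the start (chr15:98871952-98872251, minus strand): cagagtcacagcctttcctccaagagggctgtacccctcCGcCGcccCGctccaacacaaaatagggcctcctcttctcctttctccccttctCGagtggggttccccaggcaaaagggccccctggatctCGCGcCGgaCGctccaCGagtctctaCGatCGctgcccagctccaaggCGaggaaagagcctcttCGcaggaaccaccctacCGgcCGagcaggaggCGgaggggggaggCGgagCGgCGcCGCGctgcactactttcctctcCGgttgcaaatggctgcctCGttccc
Setd1a, start of the intron (chr7:127777514-127777597, plus strand): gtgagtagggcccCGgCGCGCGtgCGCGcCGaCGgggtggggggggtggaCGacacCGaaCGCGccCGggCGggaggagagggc
Setd1b, upstream peak (chr5:123140958-123141257, plus strand): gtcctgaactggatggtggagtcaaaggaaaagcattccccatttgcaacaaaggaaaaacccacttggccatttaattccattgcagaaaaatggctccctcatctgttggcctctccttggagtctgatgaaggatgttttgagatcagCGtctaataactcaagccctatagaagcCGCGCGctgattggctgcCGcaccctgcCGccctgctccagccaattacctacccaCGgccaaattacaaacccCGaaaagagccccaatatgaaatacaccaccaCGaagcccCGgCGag
Setd1b, up to the start (chr5:123142060-123142192, plus strand): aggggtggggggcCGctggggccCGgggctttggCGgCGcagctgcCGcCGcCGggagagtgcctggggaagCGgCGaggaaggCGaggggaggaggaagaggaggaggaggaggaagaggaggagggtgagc
Kdm5b, upstream flank (chr1:134556844-134557143, plus strand): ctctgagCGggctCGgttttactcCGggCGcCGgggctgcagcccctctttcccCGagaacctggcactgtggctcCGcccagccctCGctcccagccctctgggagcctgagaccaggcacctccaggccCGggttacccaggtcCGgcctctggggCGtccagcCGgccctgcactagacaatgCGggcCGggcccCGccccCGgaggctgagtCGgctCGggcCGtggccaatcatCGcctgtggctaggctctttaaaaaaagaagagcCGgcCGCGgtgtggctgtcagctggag

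The 300 bases at the center of the Kmt2a promoter peak held 29 CpG dinucleotides and those of the Kmt2d peak held 23. The Setd1a peak had 33 CpGs in its central 300 bases, and the peak at the Setd1b start had 29. The second Setd1b peak, further upstream, had 11. Over all 5113 LSD1 peaks at promoters the median was 26 CpGs, and over the 9471 other LSD1 peaks it was 3. The Kdm5a intron held 3. The Kdm5b peak, which lay outside any annotated promoter, held 23 CpGs, and 2.23% of the LSD1 peaks away from promoters held that many or more.

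A set of 3 short motif cores were searched on both strands of these 300-base windows, namely the NRF1 core CGCATGCG, the GABP core CCGGAAG and the ERR core AAGGTCA, all of which belong to regulators of mitochondrial genes. None of the 10 windows searched, one for each LSD1 peak other than that in the Kmt2c intron, held any of them. Over all promoter LSD1 peaks, 2.33% held the NRF1 core, 13.2% the GABP core and 3.5% the ERR core. The absence of these letters from 300 bases says nothing about whether the factors bind nearby.

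Kmt2a (chr9:44803355-44881296, minus strand), which encodes MLL1, had the highest-ranking LSD1 peak of the group. In the first-listed library the peak ended 2 bp before the start and was 1004 bp wide (chr9:44881298-44882301). In the second-listed library it was 1621 bp wide (chr9:44880330-44881950) and spanned the start. Its fold enrichment over the control library was 9.14 in the first-listed and 10.5 in the second-listed library. By the mean −log10 p of both libraries it stood at percentile 99.9 of the LSD1 list, with 10 peaks ranked higher. A transcript of the antisense noncoding gene AC061963.1 also starts within 1 kb of the peak. Noncoding transcripts likewise start within 1 kb of the Kmt2d promoter peak and of both Setd1b promoter peaks.

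By first-listed positions, the LSD1 peak of Kmt2d (chr15:98831669-98871204, minus strand), which encodes MLL4, lay 0.6 to 1.2 kb upstream of the start. It had 4.34-fold and 4.52-fold enrichment and a percentile of 89.6. In the second-listed library this peak was 966 bp wide (chr15:98871317-98872282) and reached closer to the start. The LSD1 peak of Setd1a (chr7:127776670-127800122, plus strand) spanned the start and the first exon, with 4.45-fold and 2.73-fold enrichment and a percentile of 74.3. Setd1b (chr5:123142193-123168629, plus strand) had 2 LSD1 promoter peaks. The one on its start had 2.75-fold and 3.65-fold enrichment (percentile 59.6), and the one 0.9 to 1.3 kb upstream had 2.63-fold and 2.69-fold enrichment (percentile 33.4). The order of the peaks by rank was therefore Kmt2a, Kmt2d, Setd1a and Setd1b. With MACS p-values limited to 1e-05 in both libraries, or q-values to 0.05, the Kmt2a and Kmt2d peaks were left and those of Setd1a and Setd1b were not.

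Counting whole windows, 7 of the 10 genes had an LSD1 peak, where 43.6% of all protein-coding genes did, and the windows held 11 LSD1 peaks in all. Besides the 5 at the genes' own promoters, 3 lay at promoters of neighboring genes. These were Tmem25 beyond the 3′ end of Kmt2a (percentile 58.8), Orai3, a calcium channel gene upstream of Setd1a (percentile 8.50), and Rhof upstream of Setd1b (percentile 64.0). The other 3 were outside promoters. One lay 3.0 to 3.4 kb upstream of Kdm5b (chr1:134556795-134557192), with 2.23-fold and 3.5-fold enrichment and a percentile of 51.2. One lay in an intron of Kmt2c, 25 kb from the start (percentile 19.9). The last lay in an intron of Kdm5a, 57 kb from the start (percentile 8.40), and 98.3% of its central 300 bases were masked as repeats in the reference, as compared with a median of 12% over LSD1 peaks away from promoters. Across the windows there were 1.29 LSD1 peaks per 100 kb, beside 0.866 over the windows of all protein-coding genes.

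**Figure D1:**
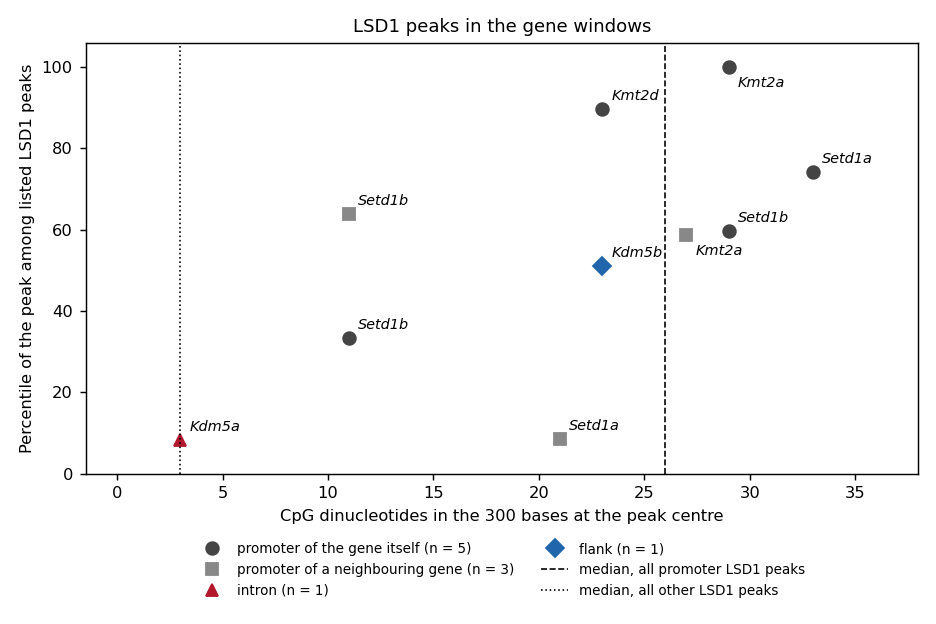
LSD1 peaks in the gene windows (10 peaks, without that in the Kmt2c intron), with the number of CpG dinucleotides in the 300 bases at its center on the x axis and its percentile among all listed LSD1 peaks on the y axis; the name is the gene whose window holds the peak, the symbol its location. The intronic peak of Kdm5a lies at the lower left with 3 CpGs, while the Kmt2a promoter peak lies at percentile 99.9 with 29 CpGs.

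H3K4me2 promoter peaks were listed for 9 of the 10 genes in control liver and for 10 of 10 in LSD1-LKO liver. Over all protein-coding genes, 58.8% had one in control and 58.9% in LSD1-LKO. The exception was Setd1a, with none in control. As at marked genes in general, the promoter peaks ranked high in their libraries. The median percentile of the highest promoter peak within its own library stood at 83.8 and 91.7 in the 2 control libraries (9 genes), as compared with 92.6 and 85.4 in the 2 LSD1-LKO libraries (10 genes). The corresponding medians over all marked genes were 83.8 and 80.9, and 84.0 and 82.7.

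**Figure D2:**
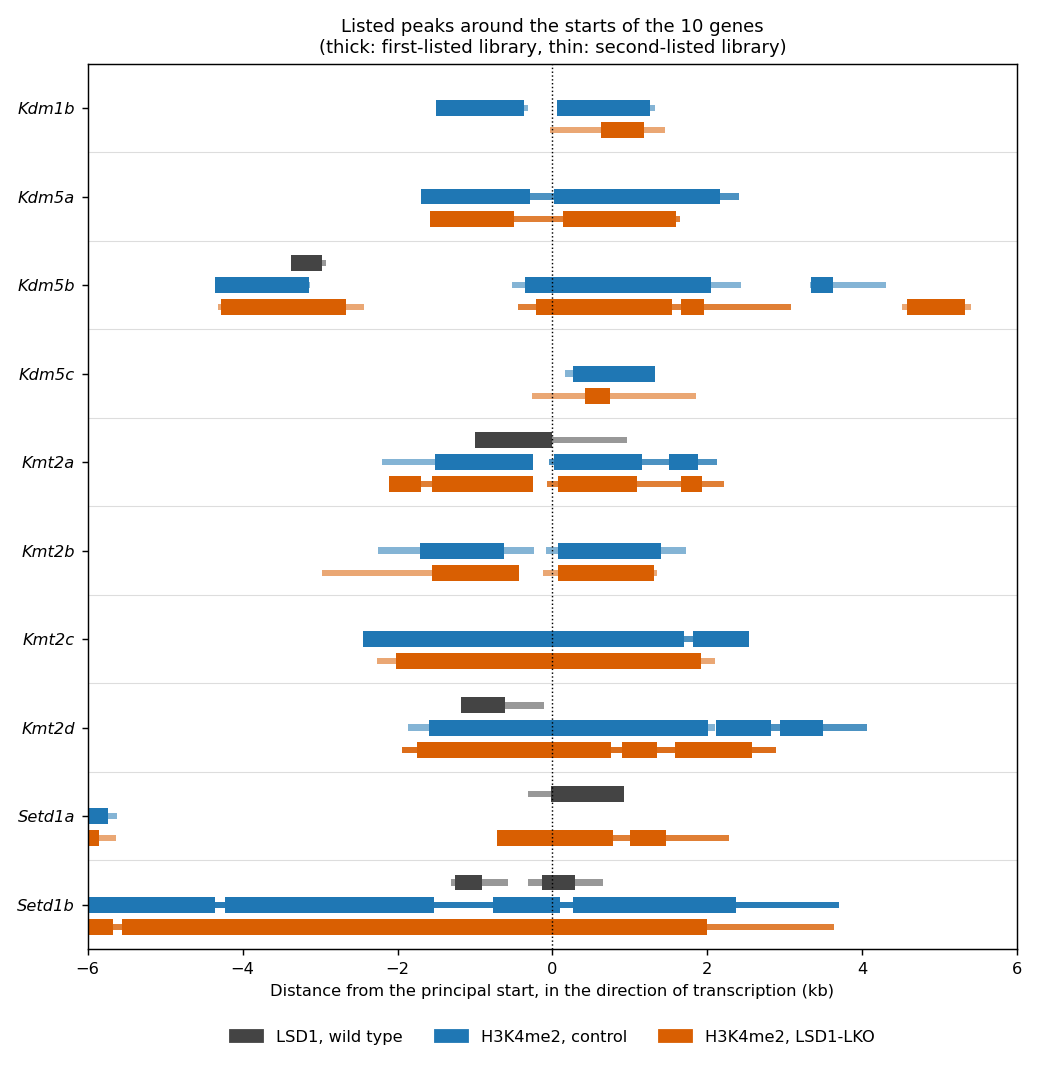
Listed peaks from 6 kb before to 6 kb after the principal start of each gene (dotted line), drawn in the direction of transcription, with LSD1 in grey, control H3K4me2 in blue and LSD1-LKO H3K4me2 in orange; thick bars are the peaks of the first-listed library and thin bars the overlapping peaks of the second-listed one. Setd1a has an LSD1 peak and LSD1-LKO H3K4me2 peaks on its start and no control peak, and at Setd1b the second-listed peak runs unbroken through the domain in both genotypes.

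Setd1a was the 1 gene of the 10 with H3K4me2 promoter peaks in 1 genotype only. No bases of its promoter lay inside a control peak, while 1952 bp did in the first-listed and 2607 bp in the second-listed LSD1-LKO library. The LSD1-LKO promoter held a 1493 bp peak over the start (5.17-fold and 6.80-fold enrichment, percentile 85.5 of its list) and a 459 bp peak in the first intron (percentile 75.5). Both were joined in a single second-listed peak of 2856 bp. The LSD1 peak of wild-type liver overlapped the first of them and ran past its downstream end. Over all protein-coding genes, 3.18% had a promoter peak in the LSD1-LKO list only. At the neighboring promoters of Orai3 and Hsd3b7, a bile acid synthesis gene, H3K4me2 peaks were listed in both genotypes. The Setd1a peaks passed the stricter limit of 1e-05 in both libraries. The control list does not tell a promoter without any peak from one called in a single library.

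Kdm1b (chr13:47043499-47085279, plus strand), which encodes the LSD1 relative LSD2, showed the reverse order in covered promoter length. Its promoter had 1655 bp and 1598 bp inside peaks in the control libraries and 443 bp and 1104 bp in the LSD1-LKO libraries, so that both LSD1-LKO libraries lay below both control libraries. The 2 control peaks flanked the start. Both also lay within 1 kb of a start of Tpmt, a thiopurine methyltransferase gene. The upstream one, from 1.5 to 0.4 kb before the start (4.85-fold and 4.81-fold enrichment, percentile 61.4), was absent from the LSD1-LKO list. The downstream one was 1202 bp wide, and its counterpart in the first-listed LSD1-LKO library 555 bp. The peak ranked at percentile 44.5 within that library and at percentile 99.8 within the second-listed one. The control libraries stood at percentiles 95.3 and 94.0. The rank of Kdm1b therefore overlapped between the genotypes, while its covered length did not. Under the limit of 1e-05, no LSD1-LKO peak was left at Kdm1b. The study reported unaltered Lsd2 expression after LSD1 knockdown in liver, and these peaks do not measure expression.

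By covered promoter length, Setd1a alone of the 10 genes had both LSD1-LKO libraries above both control libraries, and Kdm1b alone had both below. For Setd1a this order was fixed in advance, because a promoter without a listed control peak counts as 0 bp in both control libraries. Over 13553 genes with a promoter peak in either list, 14.6% lay above and 17.3% below in this sense, so 1 of 10 in each direction was not more than the share over all genes. These shares also hold genes listed in 1 genotype only. First-listed positions alone gave shorter coverage in LSD1-LKO for 6 of the 10 genes and for 60.1% of all genes. Second-listed positions gave shorter coverage for 3 and longer for 3 of the 10, and shorter coverage for 42.1% of all genes. With 2 libraries against 2, an exact two-sided permutation test cannot give a p below 0.333, so no test was made.

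**Figure D3:**
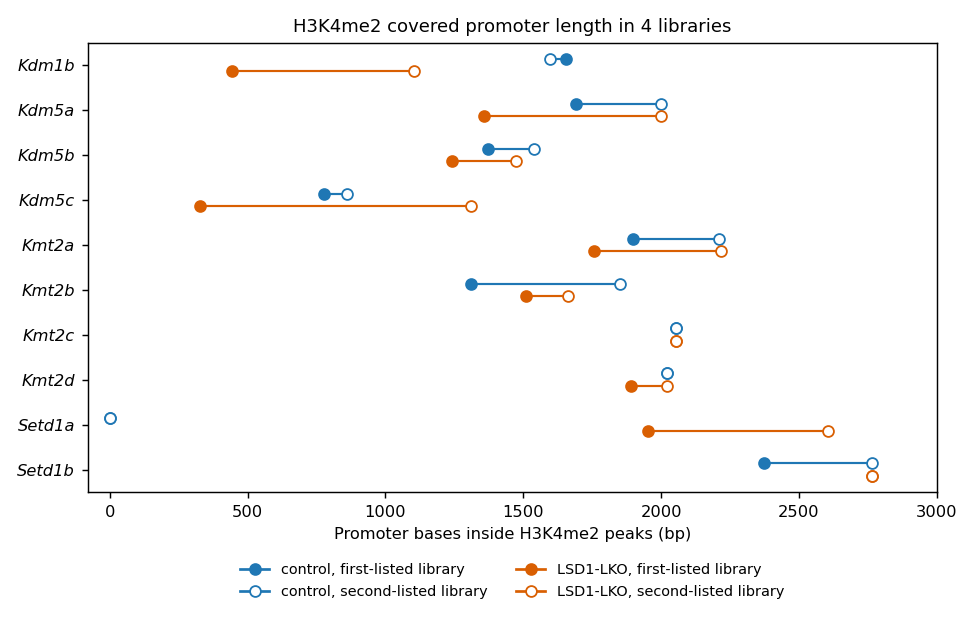
Promoter bases inside H3K4me2 peaks (x axis, bp) for each gene in the 2 control libraries (blue) and the 2 LSD1-LKO libraries (orange), with filled circles for the first-listed and open circles for the second-listed library and lines joining libraries of a genotype; equal values fall on one another. Setd1a is drawn at 0 bp in both control libraries because no control promoter peak is listed, and at Kdm1b both LSD1-LKO circles lie below both control circles.

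The 3 Kdm5 genes were marked in both genotypes, but to different degrees. Kdm5a (chr6:120364124-120444574, plus strand) had promoter coverage of 1691 bp and 2001 bp in control and 1358 bp and 2001 bp in LSD1-LKO. Its promoter region also holds a start of Ccdc77. The value of 2001 bp is the full length counted around the principal start of Kdm5a. Kdm5b (chr1:134560171-134635285, plus strand) had 1372 bp and 1540 bp in control and 1240 bp and 1473 bp in LSD1-LKO. In covered promoter length, neither gene's libraries separated by genotype.

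Kdm5c (chrX:152233020-152274535, plus strand), the X-linked member, carried the lowest-ranking promoter mark of the group. A single peak was listed in each genotype, downstream of the start and in the first intron. Its percentiles within the libraries were 35.4 and 17.1 for control and 40.2 and 74.9 for LSD1-LKO, so the LSD1-LKO libraries ranked above the control libraries. The first-listed percentiles of 35.4 and 40.2 went with fold enrichments of 2.98 in control and 2.95 in LSD1-LKO. Its covered promoter length did not separate, with 778 bp and 859 bp in control and 326 bp and 1309 bp in LSD1-LKO. Under the limit of 1e-05, no H3K4me2 peak was left at Kdm5c in either genotype.

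Kmt2a was the other gene with a higher rank in both LSD1-LKO libraries. Its highest promoter peak ranked at percentiles 90.8 and 79.7 for control and 99.8 and 96.8 for LSD1-LKO. The strongest LSD1-LKO peak lay from 1.6 to 0.3 kb upstream, under the LSD1 peak, at percentile 99.5 of its list, and its control counterpart stood at percentile 84.4. Covered promoter length at Kmt2a was 1898 bp and 2209 bp in control and 1757 bp and 2218 bp in LSD1-LKO and did not separate. Of the 9 genes with a promoter peak in both genotypes, 2 (Kdm5c and Kmt2a) had both LSD1-LKO libraries above both control libraries in percentile and 0 had both below. Over 12166 such genes, 17.8% were above and 16.4% below.

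**Figure D4:**
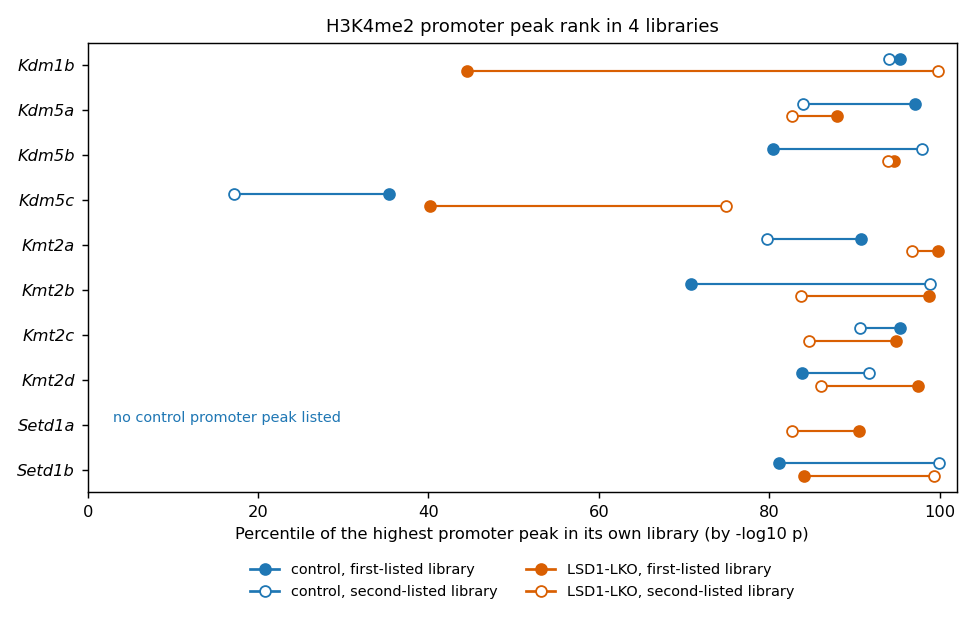
Percentile of the highest H3K4me2 promoter peak of each gene among the peaks of its own library, by −log10 p, in the 2 control libraries (blue) and the 2 LSD1-LKO libraries (orange), with filled circles for the first-listed and open circles for the second-listed library. Kdm5c and Kmt2a have both LSD1-LKO circles above both control circles, the LSD1-LKO libraries at Kdm1b lie at 44.5 and 99.8, and Setd1a has no control value.

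The remaining methyltransferase genes were marked in both genotypes, with covered promoter lengths and promoter percentiles that overlapped between them. Kmt2b (chr7:30568858-30588726, minus strand) had 1312 bp and 1852 bp of promoter covered in control and 1510 bp and 1664 bp in LSD1-LKO. Kmt2c (chr5:25271798-25498783, minus strand) had 2054 bp in all 4 libraries. Kmt2d had 2022 bp in both control libraries and 1891 bp and 2022 bp in LSD1-LKO. Setd1b had 2373 bp and 2765 bp in control and 2765 bp in both LSD1-LKO libraries. Bases further than 1 kb from a start are not counted. The values of 2054 bp, 2022 bp and 2765 bp are therefore the most that could be covered around these principal starts. At Kmt2c the peaks ran past these limits in all 4 libraries, so the equal values were fixed and do not show equal peaks. Their percentiles ranged from 70.8 (Kmt2b, control) to 99.9 (Setd1b, control).

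The start sites were marked in several patterns. At Kdm5a, Kmt2a and Kmt2b the principal start was free of a first-listed peak and flanked by peaks on both sides in both genotypes, with gaps in control and LSD1-LKO of 310 bp and 643 bp at Kdm5a, 265 bp and 330 bp at Kmt2a, and 698 bp and 500 bp at Kmt2b. Kdm1b had such a gap in control only (417 bp). This made 4 of 9 marked genes in control, where the share over all marked genes was 17.8%, and 3 of 10 in LSD1-LKO, where it was 23.0%. These gaps were seen in the first-listed libraries. By second-listed positions the start was covered at Kdm5a, Kmt2a and Kmt2b in both genotypes and at Kdm1b in LSD1-LKO, which left 1 of 9 genes (Kdm1b) in control and 0 of 10 in LSD1-LKO with such a gap, where the shares over all marked genes were 6.29% and 6.68%. By contrast, at Kdm5b, Kmt2c, Kmt2d and Setd1b the start lay inside a peak in both genotypes. At Kdm5c the mark began downstream of the start in both control libraries and in the first-listed LSD1-LKO library, while the second-listed LSD1-LKO peak covered the start. The start of Setd1a lay inside listed peaks of both LSD1-LKO libraries, and no control peak was listed there.

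Setd1b stood in one of the widest H3K4me2 domains of the lists. The second-listed control library held a single peak of 10025 bp over its start, with 12 of 35149 peaks wider, and the second-listed LSD1-LKO library one of 11219 bp, with 4 of 38292 wider. In the first-listed libraries the domain was broken into pieces in both genotypes. The widest control piece was 2850 bp, and the widest at the promoter 2109 bp. In LSD1-LKO a piece of 1888 bp lay upstream of one of 7552 bp over the start, with 2 of 50675 peaks wider than the latter. The promoter peaks of Kmt2c measured 4137 bp (control) and 3941 bp (LSD1-LKO), and those of Kmt2d 3597 bp and 2504 bp, in the first-listed libraries. In each genotype the 2 libraries thus divided the Setd1b domain differently.

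At the 11 LSD1 peaks of the windows, H3K4me2 was listed in both genotypes for 7, in neither for 2 and in LSD1-LKO only for 2. In all, 7 of 11 overlapped a control peak and 9 of 11 an LSD1-LKO peak, where 52.5% and 53.8% of all LSD1 peaks did. The 2 without H3K4me2 were the intronic peaks of Kdm5a and Kmt2c. The 2 with LSD1-LKO H3K4me2 only were the Setd1a promoter peak and the upstream Setd1b peak. The latter lies in a gap between first-listed control peaks that the second-listed control peak of 10025 bp spans, so it is covered in that control library. The Setd1a peak is covered in neither. Of the 7 counted in both genotypes, the Tmem25 peak overlapped H3K4me2 in the first-listed but not the second-listed control library. The LSD1 peak upstream of Kdm5b lay on the edge of a strong H3K4me2 peak apart from the promoter, at percentile 96.4 of the control list and 99.4 of the LSD1-LKO list.

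Over the whole windows, H3K4me2 peaks were denser than around genes in general. There were 47 control peaks (5.51 per 100 kb) and 55 LSD1-LKO peaks (6.45 per 100 kb), beside 2.93 and 3.36 per 100 kb over the windows of all protein-coding genes. The 47 control peaks comprised 14 at the genes' own promoters, 12 at promoters of neighboring genes, 11 in gene bodies and 10 in flanks. The LSD1-LKO peaks comprised 15, 15, 16 and 9 in these classes. LSD1-LKO had 3 more listed peaks than control at Kdm5a (7 against 4), Kdm5b (6 against 3) and Setd1a (7 against 4), and fewer at Kdm1b (1 against 3) and Setd1b (8 against 10).

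The covered length of the windows had no direction that held across libraries. First-listed peaks covered 58746 bp in control against 55481 bp in LSD1-LKO, a difference of -5.56%, and second-listed peaks covered 70683 bp and 77402 bp, a difference of 9.51%. The whole lists ran the same way, with 38.92 Mb against 38.03 Mb covered by first-listed and 50.81 Mb against 57.94 Mb by second-listed peaks. At Kdm5a, covered window length was 4986 bp and 5624 bp in control and 5960 bp and 7322 bp in LSD1-LKO. It was 3902 bp and 5028 bp against 5417 bp and 7199 bp at Kdm5b, and 5295 bp and 5626 bp against 6363 bp and 9179 bp at Setd1a. In these 3 genes both LSD1-LKO libraries were above both control libraries. The reverse was seen at Kdm1b, with 2790 bp and 3065 bp in control against 555 bp and 1700 bp, and at Kmt2c, with 5840 bp and 5905 bp against 4886 bp and 5545 bp. The other 5 genes overlapped. Over the genes with an H3K4me2 peak in the window in either list, 18.2% had both LSD1-LKO libraries above and 15.6% both below, beside 3 and 2 of the 10. The 3 include Setd1a, whose window holds the promoter bases (1952 bp and 2607 bp in LSD1-LKO, 0 bp in control) with an order fixed in advance. Without those bases the first-listed LSD1-LKO library would lie below both control libraries and the second-listed one above.

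In these windows, peaks listed for 1 genotype were mostly weak peaks inside gene bodies. The locations and percentiles of such peaks over the whole lists were not counted, so neither is read as particular to these genes. Of the 47 control peaks, 10 had no LSD1-LKO peak, where 31.9% of all control peaks did not, and 6 of the 10 lay in gene bodies. Of the 55 LSD1-LKO peaks, 14 had no control peak, where 35.9% of all LSD1-LKO peaks did not, and 10 of the 14 lay in gene bodies. The median percentile was 28.1 for the 10 control peaks and 82.8 for the shared ones, and 30.1 for the 14 LSD1-LKO peaks and 83.2 for the shared ones. No gene-body peak listed for 1 genotype was above percentile 38.5 in control or 48.8 in LSD1-LKO. Among them were 3 LSD1-LKO peaks toward the 3′ end of Kdm5a, 74 to 80 kb from the start, 3 in introns of Kdm5b and 3 in introns of Kmt2c. The strongest peak listed for LSD1-LKO only lay from 2.1 to 1.7 kb upstream of Kmt2a (percentile 89.2), beside the promoter peaks. It is part of a second-listed peak of 1802 bp whose other first-listed piece is shared with control, and it overlaps a second-listed control peak.

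**Figure D5:**
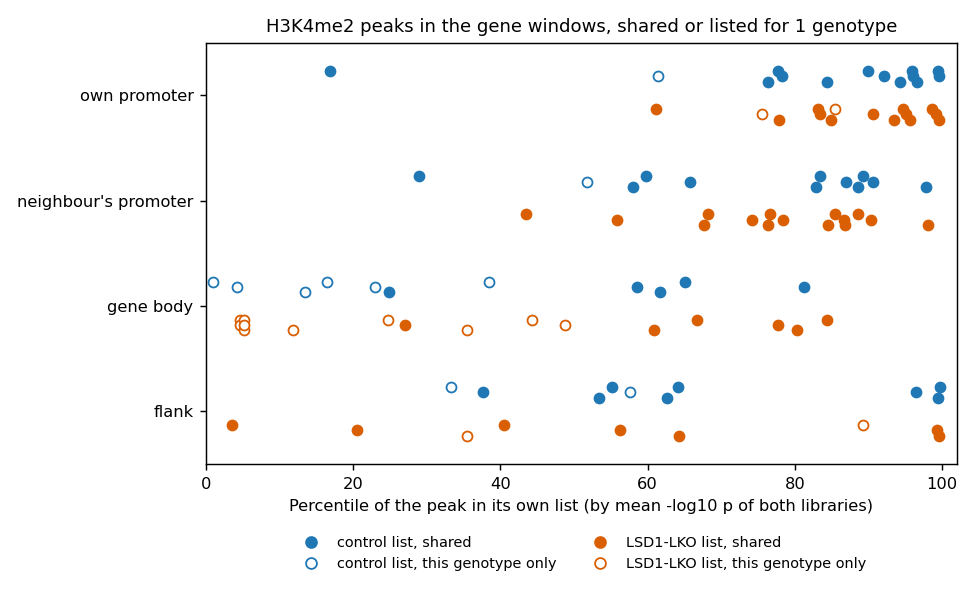
H3K4me2 peaks of the 10 windows by location (y axis) and by percentile within their own list (x axis, by the mean −log10 p of both libraries), for control (blue, 47 peaks) and LSD1-LKO (orange, 55 peaks); filled circles overlap a peak of the other genotype and open circles do not. No open circle in the gene bodies lies above percentile 38.5 in control or 48.8 in LSD1-LKO.

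Other genes of the H3K4 pathway were taken from a list of 23. An LSD1 promoter peak was found at 10 of them and an H3K4me2 promoter peak at 21 in each genotype. Over all protein-coding genes the LSD1 share was 23.6%, or 38.8% of those marked in control, and the H3K4me2 shares were 58.8% and 58.9%. LSD1 was found at 2 of the 4 core subunits shared by the methyltransferase complexes (Wdr5 and Ash2l, but not Rbbp5 or Dpy30), and at Wdr82, which recruits the SETD1 complexes to RNA polymerase II. It was found at Psip1, which tethers the MLL1 complex to chromatin, and at 3 of 4 genes of the MLL3 and MLL4 complexes (Ncoa6, Paxip1 and Pagr1a, but not Kdm6a). Among further SET-domain and demethylase genes, Kmt2e, Ash1l and Riox1 carried LSD1 promoter peaks. Covered promoter length was lower in LSD1-LKO for 12 of the 23 and higher for 10 by first-listed positions, where it was lower for 60.1% of all genes. By second-listed positions it was lower for 11 and higher for 6, where it was lower for 42.1% of all genes. Kdm1a had LSD1-LKO peaks only, one over the start (percentile 90.4) and one from 0.7 to 1.1 kb beyond it (percentile 81.7).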

How the data were processed

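By the methods and the labels, the authors mapped reads to mm10 with Bowtie 2, used MACS to call narrow peaks in each library and intersected the 2 libraries of a group with BEDtools (v2.25.0). The controls are input without antibody in the labels and IgG in the methods. The fold enrichment (a ratio of ChIP over control) and the −log10 p- and q-values are those that the authors deposited. Listed p-values reached 0.05, above the MACS limit that the methods state, so the limit behind the lists is not known. The lists name no replicate numbers, so library 1 and 2 are called first- and second-listed. In both H3K4me2 lists the peak names of the first-listed library hold the word picard and those of the second-listed do not. The lists also hold 12 columns of scores and summit offsets that were not used.

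First-listed intervals gave the positions, second-listed peaks were counted once, and an overlap of 1 bp was counted. Scores were compared between libraries as percentiles only, and fold enrichments are given as values. Many peaks share a value, with 9.05% of first-listed LSD1-LKO peaks at the same fold enrichment. Genes, transcripts and exons came from GENCODE mouse release 21, with 54361 coding starts. The principal start was that of the best-supported transcript. Sequences were read from the RefSeq copy of GRCm38, and that of 1 peak is not reported here. Overlap counting was tested on simulated data. Python 3.11.15, numpy 2.4.6, pandas 2.3.3 and matplotlib 3.10.9 were used.

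The 10 genes, the gene lists and the rules were chosen with earlier results of these data known. The rule named all 10 genes, neighbors whose promoter in a window had an LSD1 peak, Kdm1a and listed pathway genes with an LSD1 promoter peak; other genes were named after their values were seen. Alternatives were a stricter p-value, second-listed positions, other promoter and window sizes, 1 start per gene, a larger overlap and ranking by fold enrichment. The q-value limit and the start sites by second-listed positions were added after seeing the data.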

Additional observations from a re-analysis of the deposited data

How the results depend on the processing

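Of 58 values under the alternatives, 43 kept their direction and stayed within 1.5 times or within the spread between libraries. Limiting MACS p-values to 1e-05 in both libraries left 2 genes of the 10 with an LSD1 promoter peak in place of 4, and 2 LSD1 peaks in the windows in place of 11, both of which overlapped H3K4me2 in control (2) and in LSD1-LKO (2). It also left 5 control peaks without an LSD1-LKO peak and 5 LSD1-LKO peaks without a control peak, and made Kdm1b the 1 gene with a promoter peak in control only. The construction of this alternative (fewer peaks) lowers the counts. A q-value at or below 0.05, chosen after seeing the data, gave the same counts of 2 genes, 2 peaks and 1 gene marked in control only. Genes with an uncovered start between peaks fell from 4 to 1 in control and from 3 to 0 in LSD1-LKO by second-listed positions, also chosen after seeing the data. With no flank, 4 LSD1 peaks were left in the windows. Ranking by fold enrichment put 1 gene, Kdm5a, with both LSD1-LKO libraries below both control libraries, where ranking by p gave 0. The cause was not tested. Second-listed positions turned the difference in covered window length from -5.56% to 9.51%, and over the 4 pairs of a control and an LSD1-LKO library it ranged from -21.5% to 31.8%. No paired analysis was possible because the lists carry no replicate numbers.

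The depth of the libraries is unknown, and the lists do not show peaks called in 1 library.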

Other observations

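After the sequences were seen, the CCAAT letters (CCAAT on either strand, the box bound by NF-Y) were counted in the 300 bases at the center of 10 LSD1 peaks of the windows, all but that in the Kmt2c intron. They were present in 7 of 10, including the upstream Setd1b peak with 3 copies, the Rhof peak with 2 and the Kdm5b flank peak, and in 2 of the 5 peaks at the genes' own promoters. Over all LSD1 peaks the share was 26.0% at promoters and 37.0% elsewhere. The letters were chosen because they were noticed, so the count is a description.

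Setd7, a monomethyltransferase of H3K4 and of other proteins, was chosen after its values were seen. By first-listed positions it was the one gene of the 23 in the pathway list with an H3K4me2 promoter peak in control and none in LSD1-LKO. It had 1863 bp covered in the first-listed control library and percentiles of 38.8 and 81.7 in the 2 control libraries. By second-listed positions Hcfc1 also had no LSD1-LKO promoter peak, with 172 bp covered in the first-listed library. Over all protein-coding genes, 696 (3.18%) had a promoter peak in LSD1-LKO only. A promoter peak in either list was held by 13553 genes and one in LSD1-LKO by 12877, so the share in control only was similar. Dpy30, a core subunit of the methyltransferase complexes, had percentiles of 16.6 and 84.0 for control against 78.1 and 98.3 for LSD1-LKO, which overlapped.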
